A study of Homo sapiens with 2 samples.

Results

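The keratin genes were described in VMRC-LCD cells, a human lung adenocarcinoma line with neuroendocrine (NE) differentiation, after siRNA-mediated knockdown of the lncRNA *DRAIC*. They were chosen by their symbol in the platform annotation, as KRT followed by a number and, where present, a letter from A to C, so that the keratin-associated KRTAP genes are not among them. The rule found 45 keratin genes, with 1 transcript cluster each, among 17709 named and 21448 total transcript clusters. Of these, 4 are keratins of simple epithelia, 15 of stratified epithelia, 22 of hair and the hair follicle, and 4 were put in no class. RefSeq lists 55 genes of this name pattern. The other 10 have no named cluster here and were not analysed, namely *KRT20* among the simple, *KRT6A*, *KRT6B*, *KRT12*, *KRT15* and *KRT17* among the stratified, and *KRT34*, *KRT81*, *KRT82* and *KRT86* among the hair keratins.

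Both groups were VMRC-LCD cells, transfected for 72 h with a siRNA at 20 nmol/L. The si-NC group received the negative control siRNA and the si-*DRAIC*2 group the second of the siRNAs against *DRAIC*. Each condition was measured on 1 Clariom S array, so that no difference has a replicate check and none was tested. Differences are si-*DRAIC*2 minus si-NC on the log2 scale, and a gene is called higher or lower where its linear fold change is more than 1.5. Pearson's r between the arrays was 0.994 across clusters, which do not replicate each other, and the median difference of all clusters was −0.011. No cluster was named *DRAIC*, so that the knockdown could not be checked on these arrays. By RT-qPCR, the paper reports lower *DRAIC* with this siRNA than with si-NC.

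Keratins build the intermediate filaments of epithelial cells. Each filament is made of pairs of an acidic type I and a basic type II keratin, and the pair in use marks the kind of epithelium. *KRT8* and *KRT18* are the pair of simple epithelia, *KRT5* and *KRT14* that of the basal layer, and *KRT1* and *KRT10* that of the upper epidermis, while hair keratins form the hair shaft and its root sheaths. Keratin staining is used to classify lung tumors, with *KRT7* marking glandular and *KRT5* squamous carcinomas.

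To separate measured signal from background, a level was set at the 95th percentile of 494 transcript clusters of families presumed silent in this line, such as olfactory receptors, which was a log2 signal of 5.996. Only 5 keratin genes had a mean signal above it, and 40 lay at or below it. Signals of different clusters come from different probes, so that they place each gene against this level and do not rank transcript amounts between genes.

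**Figure D1:**
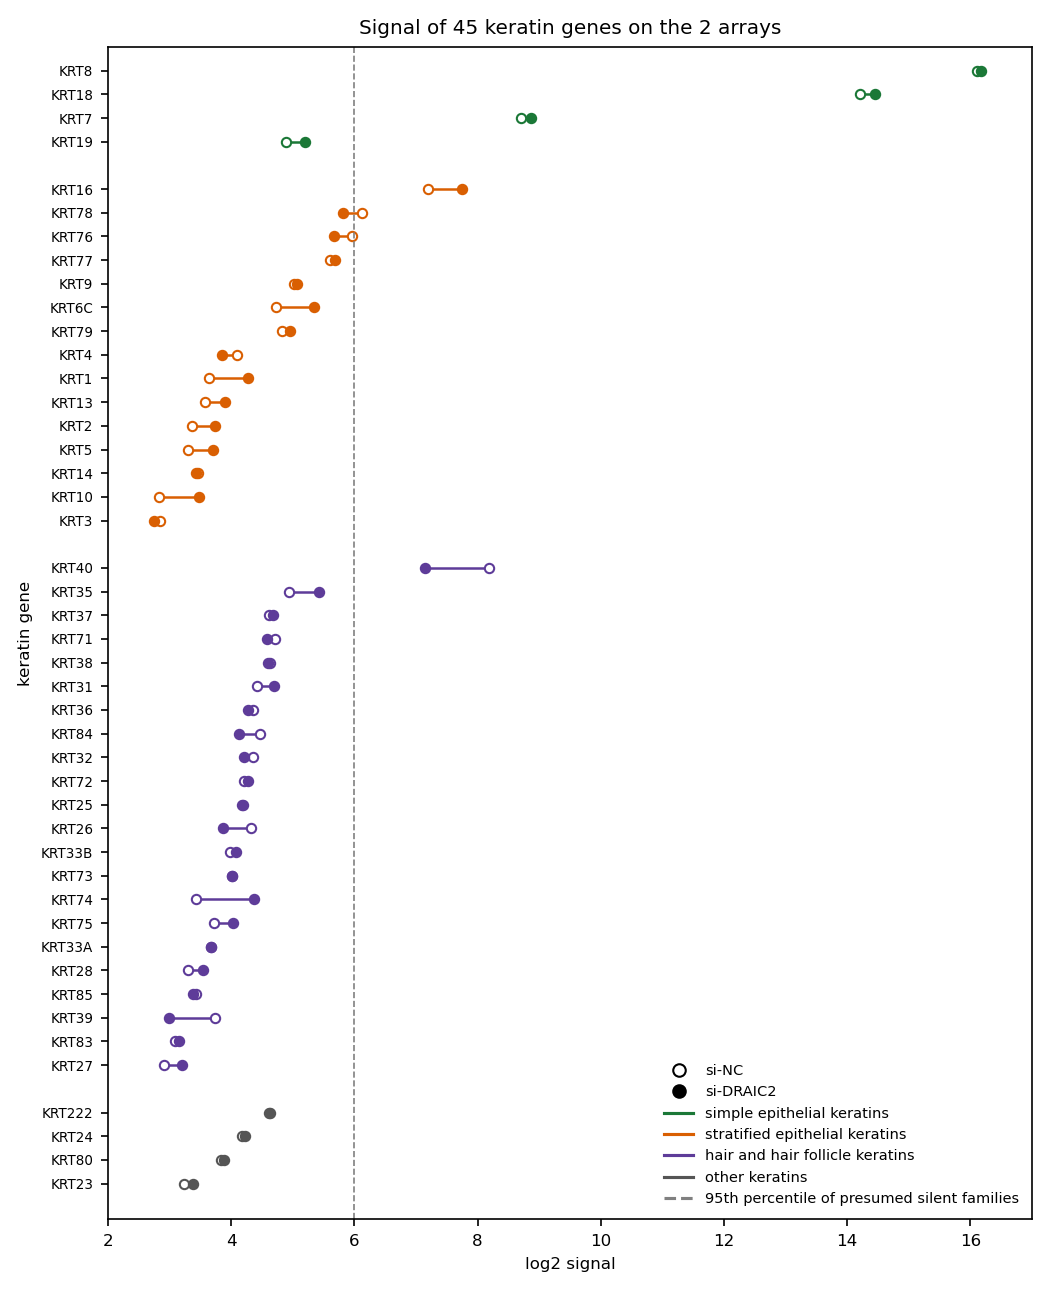
Log2 signal (x axis) of each of the 45 keratin genes (y axis) after si-NC (open points) and si-*DRAIC*2 (filled points), 1 array each, grouped by class, with the dashed line at the level of presumed silent families (5.996). *KRT8*, *KRT18*, *KRT7*, *KRT16* and *KRT40* lie to the right of the line on both arrays, and *KRT40* has the widest gap between its points.

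Among the simple epithelial keratins, *KRT8* and *KRT18* had strong signals on both arrays. *KRT8*, the type II partner, gave a log2 signal of 16.10 with si-NC and 16.17 with si-*DRAIC*2, a difference of 0.067 or 1.05-fold. *KRT18*, its type I partner, had 14.22 and 14.45, a difference of 0.24 or 1.18-fold. Both differences were small against the threshold. Of the 106 clusters within a log2 signal of 0.5 of *KRT8*, none was past 1.5-fold, and their differences had an SD of 0.17. Around *KRT18*, the SD of 519 clusters was 0.26. RefSeq names 52 pseudogenes after *KRT8* and 68 after *KRT18*, and the probes may not tell their transcripts from those of the parent genes.

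*KRT7*, a type II keratin of glandular and ductal epithelia, also lay above the silent level. Its log2 signal was 8.71 with si-NC and 8.88 with si-*DRAIC*2, a difference of 0.17, against an SD of 0.38 for 1600 clusters of similar signal. *KRT19*, a type I keratin of simple and ductal epithelia whose fragments are used as a serum tumor marker, stayed below the level on both arrays, at 4.88 and 5.20, a difference of 0.31. The deposited values of the 4 simple keratins were all higher in si-*DRAIC*2, with a median of 0.20, and none passed 1.5-fold. After a loess on mean signal was subtracted, *KRT8* had −0.014.

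The keratin past 1.5-fold with a signal above the silent level was *KRT40*, a type I hair shaft keratin. It gave a log2 signal of 8.18 with si-NC and 7.14 with si-*DRAIC*2, a difference of −1.04 or 2.05-fold lower. Both signals were above the level of 5.996, but its mean of 7.66 was below 8.02, the 99th percentile of the silent families. Of 1502 clusters with a mean signal within 0.5 of it, 8.79% were more than 1.5-fold lower, and their SD was 0.41. Among all clusters above the silent level, 5.32% were lower and 3.96% higher, beside 1 lower and 0 higher of the 5 keratin genes there.

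*KRT39*, another type I hair shaft keratin and the direct neighbour of *KRT40* among protein-coding genes on chromosome 17, gave a log2 signal of 3.75 with si-NC and 2.99 with si-*DRAIC*2. The difference of −0.76 or 1.69-fold lower was measured wholly below the silent level. *KRT23*, on the far side of *KRT39*, had a difference of 0.14. On the other side of *KRT40* follow keratin-associated genes of the hair shaft, with differences of 0.46 for *KRTAP3-3*, 0.28 for *KRTAP3-2* and 0.28 for *KRTAP3-1*. *KRT23*, *KRTAP3-3* and *KRTAP3-2* lay below the silent level on both arrays as well, and *KRTAP3-1* above it. The neighbours *KRT39* and *KRT40* were looked at because they were called lower, so that their contrast with the flanking genes follows from that choice.

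As these neighbours were the 2 keratins called lower, the stretches around their RefSeq start sites (GRCh38.p14, minus strand of chromosome 17, 250 bases before to 50 after the start) are shown. The table holds 4 starts for *KRT40*, and the array does not show which of them was used. The window shown is the 1 of the 4 with a TATA match. Capitals mark the TATA letters searched on both strands, TATAAA or TATATAA. The match nearest the start begins at position −29 in both windows, counted from the start site.
*KRT39*, chr17:40966899-40967198: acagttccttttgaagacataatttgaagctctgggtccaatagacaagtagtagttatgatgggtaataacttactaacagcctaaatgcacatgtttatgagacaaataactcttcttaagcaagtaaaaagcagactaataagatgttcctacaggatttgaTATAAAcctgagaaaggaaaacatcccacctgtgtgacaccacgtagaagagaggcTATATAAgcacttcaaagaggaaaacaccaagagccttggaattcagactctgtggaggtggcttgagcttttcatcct
*KRT40*, chr17:40984277-40984576: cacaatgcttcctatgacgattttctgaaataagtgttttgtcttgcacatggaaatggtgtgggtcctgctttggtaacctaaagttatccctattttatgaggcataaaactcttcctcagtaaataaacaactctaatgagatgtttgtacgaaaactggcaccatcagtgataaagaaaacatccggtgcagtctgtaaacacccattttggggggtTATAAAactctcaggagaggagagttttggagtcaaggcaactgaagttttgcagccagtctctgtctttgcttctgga

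A TATA match just before the start was common to many keratin genes. The promoter table matched 30 of the 45 genes with 34 windows, and 15 genes, *KRT18*, *KRT7* and *KRT16* among them, had no entry. In 17 of the 34 windows (50%), TATAAA or TATATAA on the sense strand began between positions −40 and −20, against 2.69% of the 35116 windows of all genes. These were 12 of 20 hair, 4 of 8 stratified and 1 of 1 unclassified keratin genes. The window of *KRT8*, the simple keratin with an entry, held no match. Of the 6 keratins past 1.5-fold, *KRT10*, *KRT39* and *KRT40* had a match in 1 window, *KRT74* had none, and *KRT1* and *KRT6C* had no entry. Over the whole window and both strands, the GC box GGGCGG was found in 17.6% of keratin and 45.0% of all windows, CCAAT in 44.1% and 34.6%, and the AP-1 letters TGANTCA in 0 of 34 and 7.71%. The motifs and positions were chosen after the sequences were seen. A match is a match of letters and does not show a used site.

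Among the stratified keratins, *KRT16* was above the silent level on both arrays. This type I keratin, which is induced in stressed and wounded epidermis, gave a log2 signal of 7.20 with si-NC and 7.75 with si-*DRAIC*2. Its difference of 0.55 or 1.46-fold lay just within the threshold. Of 1484 clusters of similar signal, 6.20% were more than 1.5-fold higher. *KRT16* is similar in sequence to *KRT14* and *KRT17*, and RefSeq names 6 pseudogenes after it, so that its probes may not be specific to it. *KRT14*, the basal keratin, had 3.46 and 3.44, both below the silent level. *KRT78* was above the level on 1 array, with 6.12 with si-NC and 5.82 with si-*DRAIC*2, a difference of −0.31.

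Of the 14 stratified keratins at or below the silent level, 3 were called higher, where 6.71% of all such clusters were. *KRT10*, the type I keratin of the upper epidermis, gave a log2 signal of 2.82 with si-NC and 3.49 with si-*DRAIC*2, a difference of 0.66 or 1.58-fold. Its type II partner *KRT1* had 3.65 and 4.27, a difference of 0.62 or 1.54-fold. *KRT6C*, a type II keratin of plantar epidermis, had 4.73 and 5.35, a difference of 0.62 as well. All of these signals lie in the range of the silent families on both arrays. After 32 was added to each linear signal, which damps dim signals, none of the 3 was called (*KRT10* 0.14, *KRT1* 0.20 and *KRT6C* 0.32). The other 12 stratified keratins were within 1.5-fold, and no stratified keratin was called lower. The class had a median difference of 0.13.

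Of the 22 hair and hair follicle keratins, 1 (4.55%) was higher and 2 (9.09%) were lower, where 5.13% and 6.26% of all clusters were. The median of the class was 0.011. The higher one was *KRT74*, a type II keratin of the inner root sheath, with signals (log2) of 3.43 with si-NC and 4.37 with si-*DRAIC*2, a difference of 0.94 or 1.92-fold. Both signals were below the silent level, and 6.91% of the 3663 clusters of similar signal were higher. Its neighbours *KRT71* and *KRT72*, also of the inner root sheath, had −0.12 and 0.065. *KRT35*, a hair shaft keratin, had the next largest positive difference of the class, 0.50, with 4.94 and 5.43. *KRT26* of the inner root sheath had 4.32 and 3.87, a difference of −0.45. Apart from *KRT40*, no hair keratin reached the silent level on either array. The 4 unclassified keratins *KRT23*, *KRT24*, *KRT80* and *KRT222* differed by −0.012 to 0.14, with signals between 3.24 and 4.63.

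Over all 45 keratin genes, 4 (8.89%) were higher and 2 (4.44%) lower, and 39 were within 1.5-fold. Among all clusters, 5.13% were higher and 6.26% lower. The balance turned to 0 higher and 1 lower with the offset, with a 2-fold threshold or with clusters above the silent level only. The median difference of the keratin genes was 0.067, and 28 were above 0 and 17 below. In the 40 keratin genes at or below the silent level, 4 were higher and 1 lower, where 6.71% and 7.54% of the 9101 clusters there were called. The calls among dim keratins are few and near this background, and a dim signal below the silent level does not show that the gene was expressed.

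**Figure D2:**
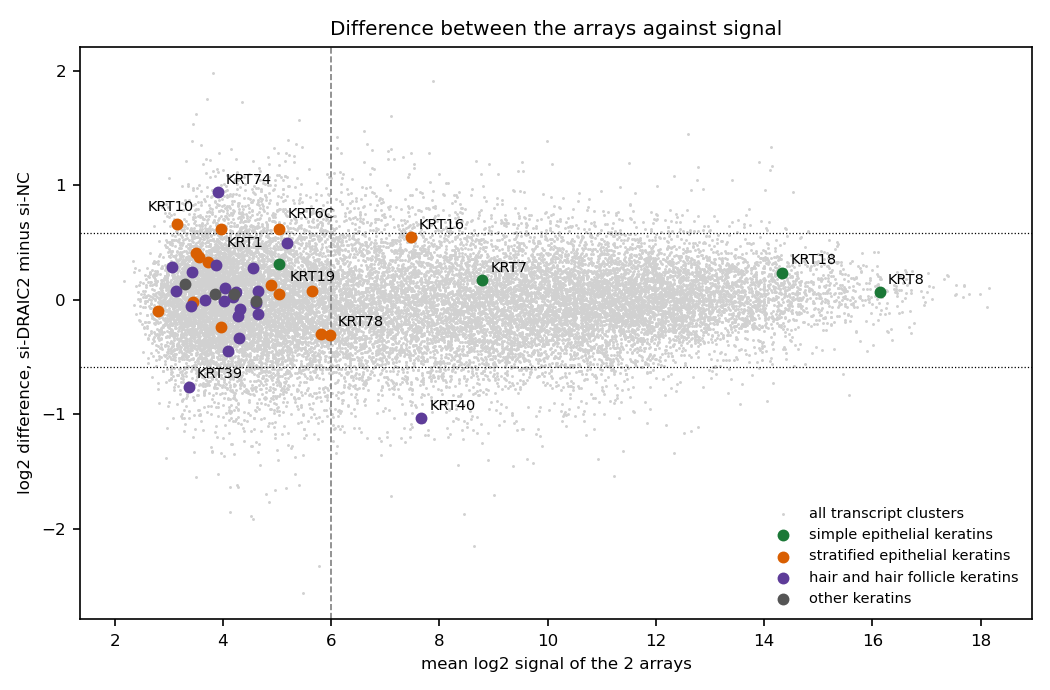
Log2 difference, si-*DRAIC*2 minus si-NC (y axis), against the mean log2 signal of both arrays (x axis) for all transcript clusters (grey) and the 45 keratin genes (colored by class), with 1.5-fold as dotted lines and the level of presumed silent families as a dashed line. *KRT40* at −1.04 is the keratin outside the dotted lines to the right of the dashed line, and *KRT8* and *KRT18* lie close to 0 at the bright end.

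Partners of a pair were set side by side. *KRT8* and *KRT18*, the only pair here with both partners above the silent level, had 0.067 and 0.24. *KRT7* and *KRT19*, the second of which was below it, had 0.17 and 0.31. *KRT1* and *KRT10* were both higher, by 0.62 and 0.66, and *KRT6C* and *KRT16* had 0.62 and 0.55. *KRT5* had 0.41, from 3.31 to 3.71, whereas its partner *KRT14* had −0.022. In the mucosal pair, *KRT4* had −0.24 and *KRT13* 0.33, and in the hair shaft pair *KRT85* had −0.057 and *KRT35* 0.50. *KRT1*, *KRT10*, *KRT6C*, *KRT5*, *KRT14*, *KRT4*, *KRT13*, *KRT85* and *KRT35* all lay below the silent level on both arrays. Their values, like or unlike within a pair, were thus not separated from background. All of the pairs were picked from textbook knowledge after the values were seen. By type, 1 of 24 type I keratins was higher and 2 were lower, with a median of 0.064, and 3 of 21 type II keratins were higher and 0 lower, with a median of 0.067, where 5.13% of all clusters were higher and 6.26% lower. The 3 higher type II genes, *KRT1*, *KRT6C* and *KRT74*, all lay below the silent level and were within 1.5-fold after the offset.

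Keratin genes lie in clusters on chromosome 12, which holds the type II genes and *KRT18*, and on chromosome 17, which holds the other type I genes. The 22 genes on chromosome 12 had a median difference of 0.072 and the 23 on chromosome 17 one of 0.053. *KRT8* and *KRT18* are direct neighbours, and *EIF4B*, the translation factor gene beyond *KRT18*, had a difference of −0.019. *KRT78*, on the other side of *KRT8*, lay near the silent level, so that bright and dim genes adjoin there.

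**Figure D3:**
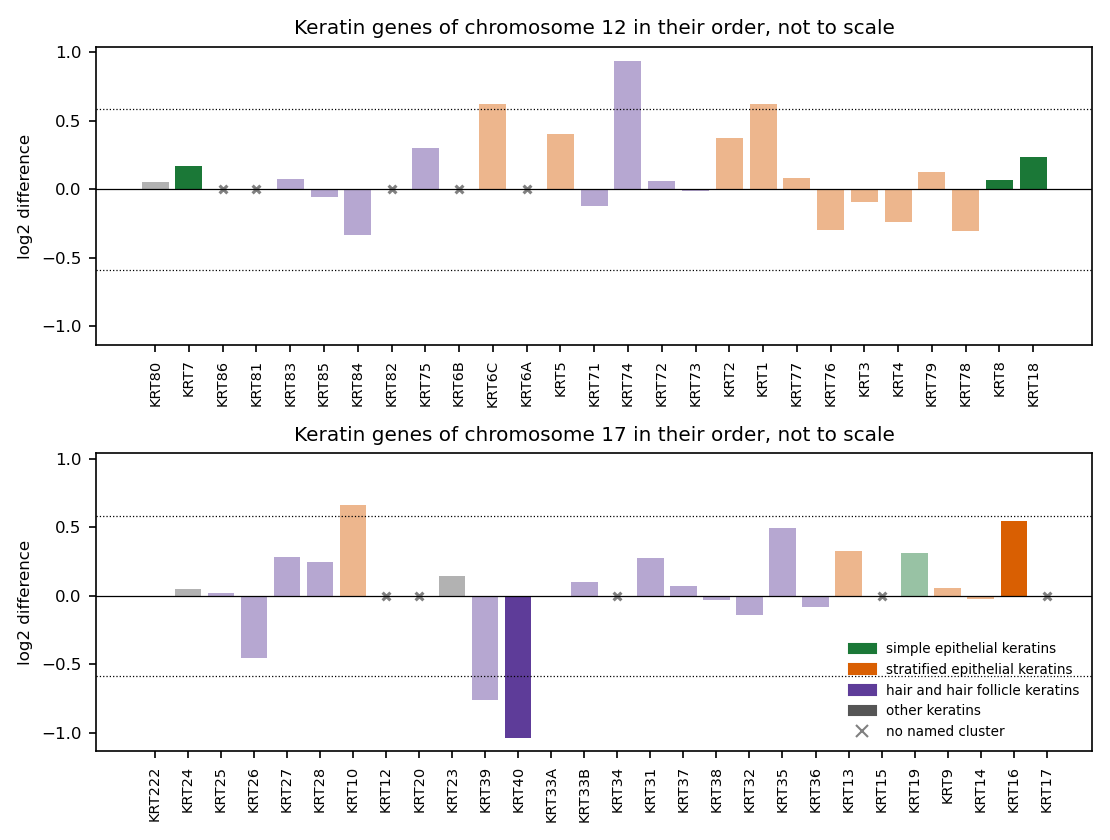
Log2 difference, si-*DRAIC*2 minus si-NC (bars, y axis), of keratin genes in their RefSeq order on chromosome 12 (top) and chromosome 17 (bottom), with pale bars for genes at or below the silent level, crosses for genes with no named cluster and dotted lines at 1.5-fold. The lower bars past the threshold are the neighbours *KRT39* (−0.76) and *KRT40* (−1.04), and the higher ones, *KRT6C*, *KRT74*, *KRT1* and *KRT10*, are all pale.

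The genes that anchor keratin filaments were measured at a range of levels. In desmosomes and hemidesmosomes, plakins tie the filaments to the membrane. Of 18 such genes, 11 were above the silent level, and none of these passed 1.5-fold. Among all clusters above that level, 3.96% were higher and 5.32% lower. *DSP*, which encodes desmoplakin, gave a log2 signal of 15.06 with si-NC and 15.39 with si-*DRAIC*2, a difference of 0.33. *PERP*, a membrane protein of desmosomes, had 0.12 and *DST*, which encodes dystonin, −0.14. The 1 gene past the threshold was *DSG1*, a desmoglein of the upper epidermis, at 3.91 and 4.67, below the silent level. Over the list, 1 of 18 (5.56%) was higher and 0 lower, beside 5.13% and 6.26% of all clusters, with a median of 0.096.

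Of 17 measured genes for proteins that bind or modify keratins, 1 (5.88%) was higher and 1 lower, close to the 5.13% and 6.26% of all clusters. *DNAJB6*, a co-chaperone that binds the *KRT18* protein, gave a log2 signal of 11.52 with si-NC and 12.52 with si-*DRAIC*2, a difference of 0.998. *PRKCE*, a kinase found with *KRT8* and *KRT18* filaments, had 9.06 and 7.95, a difference of −1.11 or 2.16-fold lower. Both genes lay above the silent level on both arrays. The brightest members, *YWHAE* (0.29), *HSPA1A* (0.30) and *CSNK1A1* (0.054), were within 1.5-fold. *HSPA1A* has a near-identical copy. The median was −0.18, and 3 genes of the list had no named cluster.

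Other intermediate filament genes include the neuronal ones that NE cells use. Of 14 measured, 2 (14.3%) were higher and 1 (7.14%) lower, where 5.13% and 6.26% of all clusters were called. The median was 0.063, and 10 were above the silent level. *INA*, which encodes alpha-internexin, had 16.28 with si-NC and 16.25 with si-*DRAIC*2. The neurofilament genes differed from each other, with *NEFM* at 15.99 and 15.15 (−0.83), *NEFL* at 10.01 and 10.64 (0.63) and *NEFH* at a difference of 0.17. *LMNB1*, a nuclear lamin gene, had 0.19. *PRPH*, which encodes peripherin, was called higher at 3.83 and 4.81, below the silent level. Strong signals of *KRT8*, *KRT18* and of neuronal filament genes were thus found in the same samples.

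Genes of the cornified envelope, which accompany the upper epidermal keratins, were mostly dim. Of 39 measured, 5 were above the silent level, 1 (2.56%) was higher and 2 (5.13%) were lower, with a median of 0.14. All 3 lay below the level, where 6.71% of all clusters were higher and 7.54% lower. *LCE1E* (13.88 and 13.95), *LCE1C* and *CALML5* had the strongest signals, with differences of 0.062, 0.016 and 0.23. The LCE genes are similar to each other, and their probes may not tell all of them apart. Their signals differed widely, with *LCE1A* at 3.48 and 3.83. Of 29 measured transcription factor genes known to act at keratin genes, 0 were higher and 1 (3.45%) was lower, beside 5.13% and 6.26% of all clusters. The lower one was *TP73* of the p53 family, at 8.70 and 7.58 (−1.12). *ETS2* (0.046), *SP3* (−0.11) and *SP1* (−0.22) had the strongest signals, and the median was −0.048. *TP63*, the regulator of stratified epithelia, had no named cluster here.

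**Figure D4:**
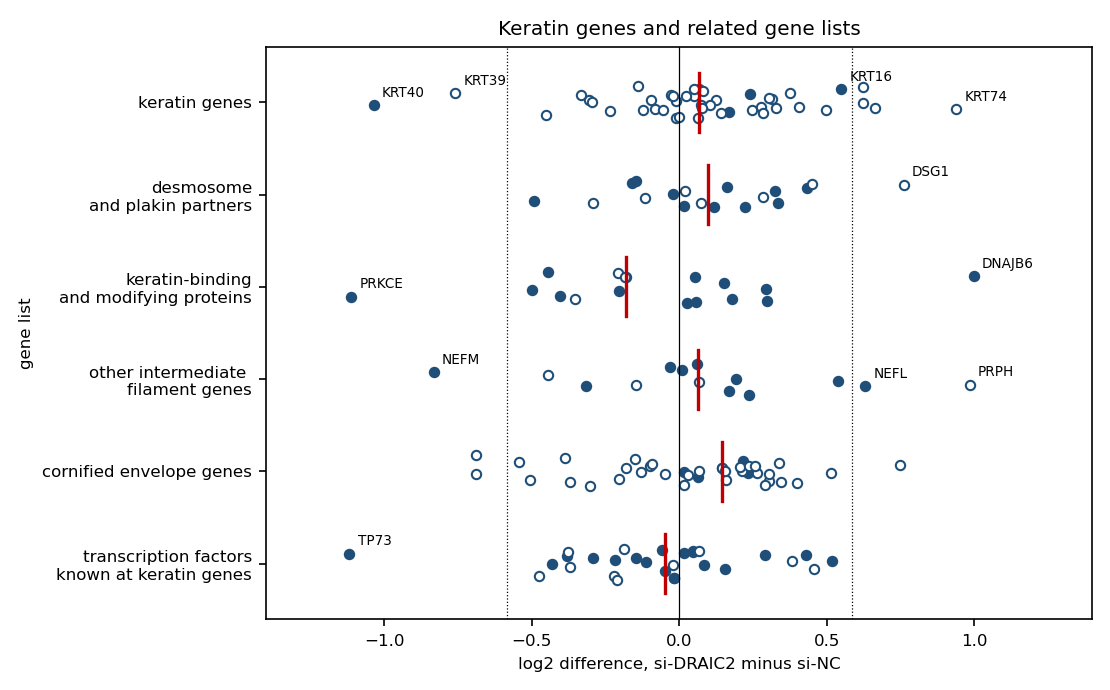
Log2 difference, si-*DRAIC*2 minus si-NC (x axis), of each keratin gene and each member of the related lists (y axis), filled where the mean signal is above the silent level and open otherwise, with the list's median in red and 1.5-fold as dotted lines. Medians lie between −0.18 and 0.14, and the filled points past the dotted lines are *KRT40*, *DNAJB6*, *PRKCE*, *NEFM*, *NEFL* and *TP73*.

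The keratins were set beside markers of cell types. The epithelial and squamous lists hold keratins themselves, *KRT8* and *KRT18* in the first and *KRT5* and *KRT14* in the second. Of 9 epithelial markers, 8 were above the silent level on the mean of the arrays, with *EPCAM* at 15.92 on both. *MUC1* was below it. All 7 measured NE markers were above it. Of 7 squamous and basal markers, 1 was above it, *CALML3* at 7.33 and 7.02, while *KRT5*, *KRT14*, *DSG3* and *DSC3* were below. Of 5 markers of lung adenocarcinoma, *NKX2-1* was near the level at 5.98 and 6.42, and *NAPSA*, *SFTPB*, *SFTPC* and *SFTA2* were below it, so that these defining markers were not clearly measured. Of the markers of other cells, 2 of 7 for fibroblasts (*LUM* and *COL1A2*), 1 of 5 for leukocytes (*CD68*) and 0 of 4 for endothelium were above the level. Both groups were cultures of the VMRC-LCD line, and the source of these marker signals was not tested.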

How the data were processed

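Total RNA of VMRC-LCD cells was measured on Human Clariom S arrays, 1 per condition. The deposited values are log2 signals, 1 per transcript cluster, that the authors obtained with the Transcriptome Analysis Console. Its SST-RMA routine removes background, gives both arrays the same distribution and merges the probes of a cluster. A shift shared by all transcripts would not show after such a normalization. No source used here gives the software version, the annotation build or any filter. The values were used unscaled.

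Clusters were named through the platform annotation, and all 45 keratin genes matched RefSeq (GRCh38.p14) by gene identifier. The keratin genes, gene lists and classes were chosen with earlier results of these data known. Keratins were named where a signal exceeded the silent level on either array, where they passed 1.5-fold, or where they were simple keratins. Related genes were named where they passed 1.5-fold above that level or were among the 3 brightest of their list. Others named in the text (such as *KRT35*, *KRT26*, *KRT5*, *KRT14*, *DSG1*, *PRPH*, *NEFH* and the genes next to named keratins) were chosen after their values were seen. Silent families were beta-defensins, keratin-associated proteins and the trace amine, vomeronasal, taste and olfactory receptors. Clusters of 1 symbol were averaged in lists. With 1 array per condition no p-value was computed, and the number of arrays limits the precision. Alternatives were a 2-fold threshold, an offset of 32, brighter rows only, a median of 0, a loess (span 0.3) and other silent levels. Python 3.11.15, numpy 2.4.6, pandas 2.3.3, statsmodels 0.14.6 and matplotlib 3.10.9 were used.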

Additional observations from a re-analysis of the deposited data

How the results depend on the processing

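With a 2-fold threshold, with clusters above the silent level only, or after 32 was added to each linear signal, 0 keratin genes were higher and 1 was lower, in place of 4 and 2. *KRT40* is the lower gene under each of these, with −0.89 after the offset. The offset, which damps dim signals, brought *KRT1* (0.20), *KRT6C* (0.32), *KRT10* (0.14), *KRT39* (−0.19) and *KRT74* (0.30) within 1.5-fold. It gave a median difference of 0.027 for the keratin genes, and the 5 above the silent level had 0.17. After a loess on mean signal, *KRT16* passed 1.5-fold (0.59), so that 5 keratins were higher, and *KRT8* turned to −0.014. Setting the median of all clusters to 0 altered no call among the 12 keratins named by the rule. The number of keratins above the silent level was 3 with the 99th percentile of the silent families, a log2 signal of 8.02, below which *KRT40* and *KRT16* fell, and 8 with the olfactory receptors alone, 5.35. No paired analysis was possible because each condition has 1 array. Depth has no counterpart on these arrays, and 39 keratin genes did not exceed the silent level on either array, so that their signals were not separated from background by it.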

Other observations

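The keratin-associated proteins, which form the matrix between the keratin filaments of hair and are not among the keratin genes, had 85 transcript clusters. Of these, 4 were higher and 4 lower than 1.5-fold in si-*DRAIC*2, 4.71% each way beside 5.13% and 6.26% of all clusters, with differences from −0.67 to 0.91. Their mean signal was above the silent level in 11 clusters, none of which passed 1.5-fold, and the strongest had a log2 signal of 10.51 in si-NC. These clusters are part of the presumed silent families, so that the level itself rests in part on them.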
